A study of Mus musculus with 4 samples.

Results

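Transcript levels of 10 genes of the LIF/JAK/STAT3 pathway were followed in mouse embryonic stem cells (mESCs) with and without a JAK inhibitor and in trophoblast stem cells (TSCs). The 10 genes, Lif, Lifr, Il6st, Stat3, Socs1, Socs2, Socs3, Pim1, Pim3 and Bcl3, were chosen by name for their place in the pathway, out of 37620 genes counted. They were chosen with earlier results of these data known. Each gene was found by its Ensembl identifier, and its count on the strand of the gene was read in all 4 samples. The study asked how pluripotent cells respond to changes in their signaling inputs, and 1 RNA-seq library per condition was used here. Further libraries of the study were not analysed here, so no difference below has a replicate check. The R1 mESC line was cultured for 2 days in serum-containing, feeder-free medium. Cells of the 2i-L library had CHIR99021 (3 µM), which inhibits GSK3, together with PD0325901 (1 µM), which inhibits MEK, and LIF is not among the supplements listed for any of the R1 samples. The 2iJ cells received in addition a JAK inhibitor at 2.0 µM. The 2iJ+B-A cells received, on top of 2iJ, BMP4 at 10 ng/ml and ALK5 inhibitor II, which blocks the type I receptor of Activin and TGFβ signaling, at 10 µM. Since BMP4 and the ALK5 inhibitor were added together, their parts cannot be told apart. The TSC library came from the F4 line, carries the same day on its label and names no treatment. TSCs differed from the R1 samples in cell type, line and medium at once, and these cannot be told apart.

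LIF binds its receptor LIFR, which pairs with gp130, the signaling chain encoded by Il6st. Janus kinases bound to the receptor tails then phosphorylate STAT3, which enters the nucleus and raises transcription of its targets, among them the SOCS genes, whose proteins bind the receptors or the kinases and damp the signal. In mESC culture, LIF is the classical self-renewal factor, and Pim1, Pim3, Bcl3 and Stat3 itself are known as genes that respond to it.

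Counts on genes per library lay between 33913984 and 36964392, and levels are given as CPM, the usual depth-scaled unit of counts, with TMM factors of 0.969 to 1.035 applied to the library totals. A count of 3, taken as the lowest detectable signal, corresponded to between 0.0799 and 0.0902 CPM. All intervals are 95% intervals of counting error only. The labels were checked against marker lists. Summed over 8 ESC markers, the level was 5415 CPM in 2i-L, 4762 CPM in 2iJ, then 2962 CPM for 2iJ+B-A, and 542 CPM in TSC. Over 8 TSC markers it was 268, 304, 898 and 2245 CPM in the same order, the largest part in 2iJ+B-A and TSC being Krt8 (553 and 884 CPM). Elf5, a gene that defines TSCs, had 1, 2 and 5 counts in the R1 libraries and 10471 in TSC. Summed fibroblast (feeder) markers were at 2260, 2313, 1350 and 75.6 CPM, nearly all of it Fn1, and of the 8 markers Lum was at 0 in 2i-L and Col1a2 and Lum were at 0 in TSC. Summed primitive endoderm markers were at 179, 284, 420 and 901 CPM, mostly Sparc. Summed mesoderm markers were lowest in 2iJ+B-A (3.78 CPM) and highest in TSC (26.5 CPM), but the genes of that list went different ways. Between 2iJ and 2iJ+B-A, T went from 2.85 to 0.160 CPM while Kdr went from 0.874 to 2.21 CPM, and of the TSC sum 22.3 CPM were Kdr.

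In the 2iJ library, 3 of the 10 genes were lower than in 2i-L by at least 2-fold and none was higher. They were Bcl3, Socs3 and Stat3, a transcriptional cofactor, a feedback inhibitor and the transcription factor of the pathway itself. A gene was counted as different when the log2 ratio of its levels, each with 0.5 CPM added, was at least 1 in size. By that measure 0.918% of the 14263 genes kept (1 CPM or more in any library) were lower in 2iJ and 2.15% differed in either direction. All 10 genes passed this filter. Since they were chosen with earlier results of these data known, the shares and ranks given here are a description only. The median log2 ratio of the 10 was -0.09, beside 0.01 for all genes kept, with 4 genes above 0 and 6 below. Among all genes kept, Bcl3 had the lowest log2 ratio of all (rank 1 from the lowest), Socs3 was at rank 9 and Stat3 at rank 36. The remaining 7 genes had log2 ratios between -0.58 for Pim1 and 0.34 for Il6st. In bulk RNA, fewer expressing cells and less RNA per cell cannot be told apart. Summed ESC markers were lower in 2iJ (4762 against 5415 CPM). Summed primitive endoderm markers were higher (284 against 179 CPM), mostly through Sparc (265 against 168 CPM). Of the 7 endoderm markers that passed the filter, 5 had log2 ratios above 0 and 2, Gata4 and Sox17, below 0. Only Dab2 was higher by 2-fold. Of the 8 TSC markers, Cdx2 and Gata3 were higher in 2iJ, by 2.56-fold and 2.78-fold, and 0 were lower by 2-fold. The part of these markers in the results was not tested.

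**Figure D1:**
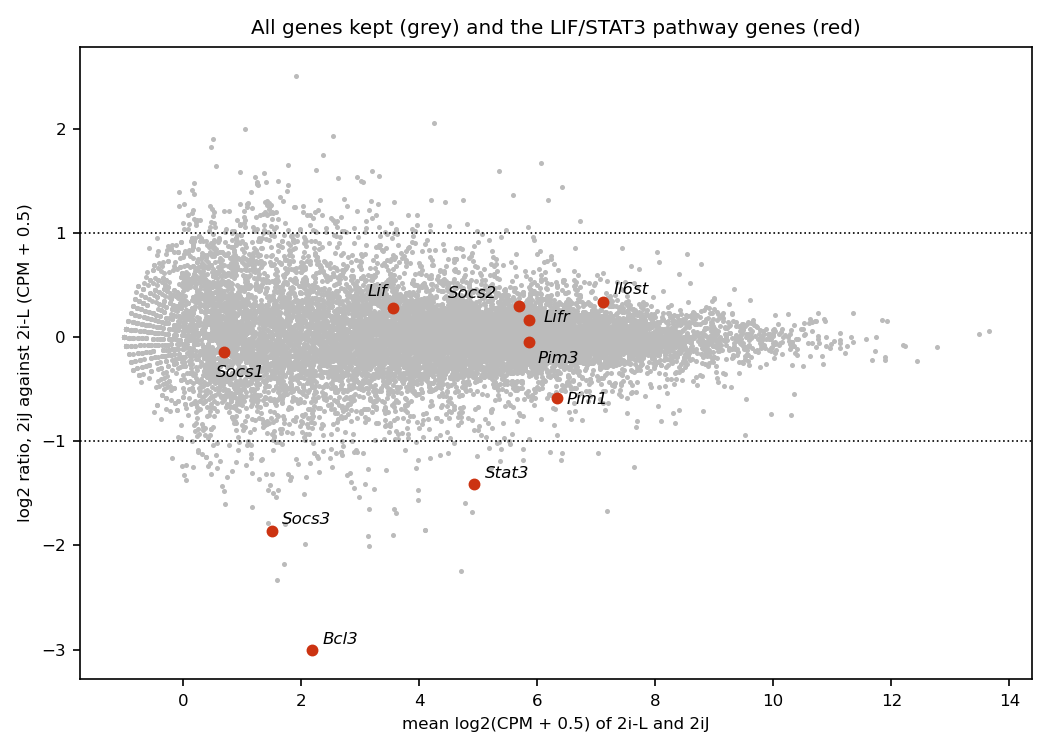
Log2 ratio of 2iJ to 2i-L (CPM with 0.5 added) against the mean log2 level of both libraries, for the 14263 genes kept (grey) and the 10 pathway genes (red), with dotted lines at 2-fold. Bcl3, Socs3 and Stat3 lie below the lower line, and Bcl3 is the lowest point of all.

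The gene for the ligand, Lif (ENSMUSG00000034394, chr11:4157560-4172517 of NCBIM37, plus strand), was at 10.2 CPM in 2i-L, 12.5 CPM under 2iJ, 19.0 CPM under 2iJ+B-A and 47.1 CPM in TSC. TSC was the highest library and 2iJ+B-A the next, while the intervals of 2iJ (11.31 to 13.7 CPM) and 2i-L (9.14 to 11.34 CPM) just met. The ratio of 2iJ to 2i-L was 1.22 (interval 1.06 to 1.41), which excludes 1 by counting error. Compared with 2iJ, the Lif level in 2iJ+B-A was 1.53-fold (interval 1.35 to 1.72), and in TSC it was 4.63-fold (4.11 to 5.21) that of 2i-L.

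The receptor genes were lowest in TSC, whereas the R1 libraries lay close together. Lifr (ENSMUSG00000054263, chr15:7079559-7147489, plus strand), the LIF-binding chain, was at 54.7 CPM in 2i-L, 61.5 CPM with the JAK inhibitor (2iJ), 51.1 CPM after BMP4 and the ALK5 inhibitor were added (2iJ+B-A) and 2.62 CPM in TSC. Its level in 2i-L was thus 20.9-fold (interval 16.9 to 26.0) that of TSC, the largest ratio among the 10 genes in any of the comparisons made here. The TSC value rested on 92 counts. Il6st (ENSMUSG00000021756, chr13:113265216-113297068, plus strand), which encodes the gp130 chain shared by the whole IL6 family, was at 123 CPM in 2i-L, 156 CPM for 2iJ, 142 CPM for 2iJ+B-A, and 38.5 CPM for TSC. In 2i-L it stood at 3.20-fold (3.01 to 3.41) its TSC level, and in 2iJ at 1.26-fold (1.21 to 1.31) its 2i-L level. Per exon length, Il6st exceeded Lifr by 4.47-fold in 2i-L, 5.02-fold under 2iJ and 5.50-fold under 2iJ+B-A, and by 29.1-fold in TSC. Both chains were therefore lower in TSC, Lifr by more than Il6st.

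Stat3 (ENSMUSG00000004040, chr11:100746412-100800854, minus strand), the transcription factor that the Janus kinases activate, was at 49.3 CPM in 2i-L, 18.3 CPM in 2iJ, then 15.3 CPM for 2iJ+B-A, and 123 CPM in TSC. No interval of one library overlapped that of another. The 2i-L level was 2.70-fold (interval 2.46 to 2.96) that of 2iJ, which is a log2 ratio of -1.41 in 2iJ. Adding BMP4 and the ALK5 inhibitor went with a ratio of 0.836 (0.745 to 0.937) to 2iJ, and TSC stood at 2.49-fold (2.35 to 2.64) the 2i-L level. The Stat3 locus overlaps Stat5a on the opposite strand. The counts used here keep the strands apart, and at most 20 read pairs per library lay on the other strand of Stat3. Of the Stat3 transcript, 49.7% was also spanned by approximate matches elsewhere in the genome. Their highest match score was 71.2%, which is not a base-by-base identity and sets no bound on it.

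The 3 SOCS genes did not behave alike. Socs3 (ENSMUSG00000053113, chr11:117827393-117831361, minus strand), whose protein binds gp130 and blocks the kinases there, was at 4.90 CPM (163 counts) in 2i-L, 0.990 CPM (34 counts) under 2iJ, 3.86 CPM (145 counts) under 2iJ+B-A and 40.8 CPM (1431 counts) in TSC. TSC was the highest and 2iJ the lowest, and the intervals of 2i-L (4.18 to 5.71 CPM) and 2iJ+B-A (3.26 to 4.54 CPM) overlapped. The 2i-L level was 4.95-fold (3.40 to 7.39) that of 2iJ, the 2iJ+B-A level 3.90-fold (2.67 to 5.84) that of 2iJ, and the TSC level 8.32-fold (7.07 to 9.84) that of 2i-L. The first and the second of these ratios share the 2iJ library, so they are not independent of each other. Compared directly with 2i-L, Socs3 in 2iJ+B-A had a log2 ratio of -0.31, and its fold was 0.788 (0.625 to 0.991), just below 1.

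Socs2 (ENSMUSG00000020027, chr10:94847996-94879814, minus strand), best known as a brake on growth hormone signaling through STAT5, was at 46.3 CPM in 2i-L, 57.1 CPM with the JAK inhibitor (2iJ), 19.6 CPM after BMP4 and the ALK5 inhibitor were added (2iJ+B-A) and 21.5 CPM in TSC. It was thus high in the R1 libraries without BMP4 and the ALK5 inhibitor and low in the other two, whose intervals overlapped. Its 2iJ level was 1.23-fold (interval 1.15 to 1.32) that of 2i-L and 2.92-fold (2.68 to 3.18) that of 2iJ+B-A, so Socs2 and Socs3 differed in opposite directions in both of these comparisons. The 2i-L level was 2.15-fold (1.97 to 2.35) that of TSC. With library totals in place of TMM scaling, the log2 ratio of TSC to 2i-L was -0.99 and no longer reached 2-fold. Of the Socs2 transcript, 10.7% was spanned by approximate matches elsewhere, with a match score of up to 98.2%. Reads that map to several places are left out of the counts, and how many Socs2 reads this removed was not measured.

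Socs1 (ENSMUSG00000038037, chr16:10783901-10785629, minus strand), which inhibits the Janus kinases directly, was close to the filter, at 1.203 CPM in 2i-L, 1.05 CPM for 2iJ, 0.878 CPM for 2iJ+B-A, and 2.08 CPM for TSC. These levels came from 33 to 73 counts, and each library's interval overlapped that of its neighbour in the order of levels. The ratio of TSC to 2i-L was 1.73 (1.16 to 2.61). The ratio of 2iJ to 2i-L was 0.872 with an interval of 0.540 to 1.40, so a difference between these libraries was not detectable at this depth. Expressed per exon length, Socs3 made up 22.5% of the summed level of the 3 SOCS genes in 2i-L, 4.76% under 2iJ, 32.5% under 2iJ+B-A and 78.1% in TSC. Socs2 exceeded Socs3 by 17.5-fold in 2iJ and by 1.54-fold in 2iJ+B-A, while in TSC Socs3 exceeded Socs2 by 6.24-fold.

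**Figure D2:**
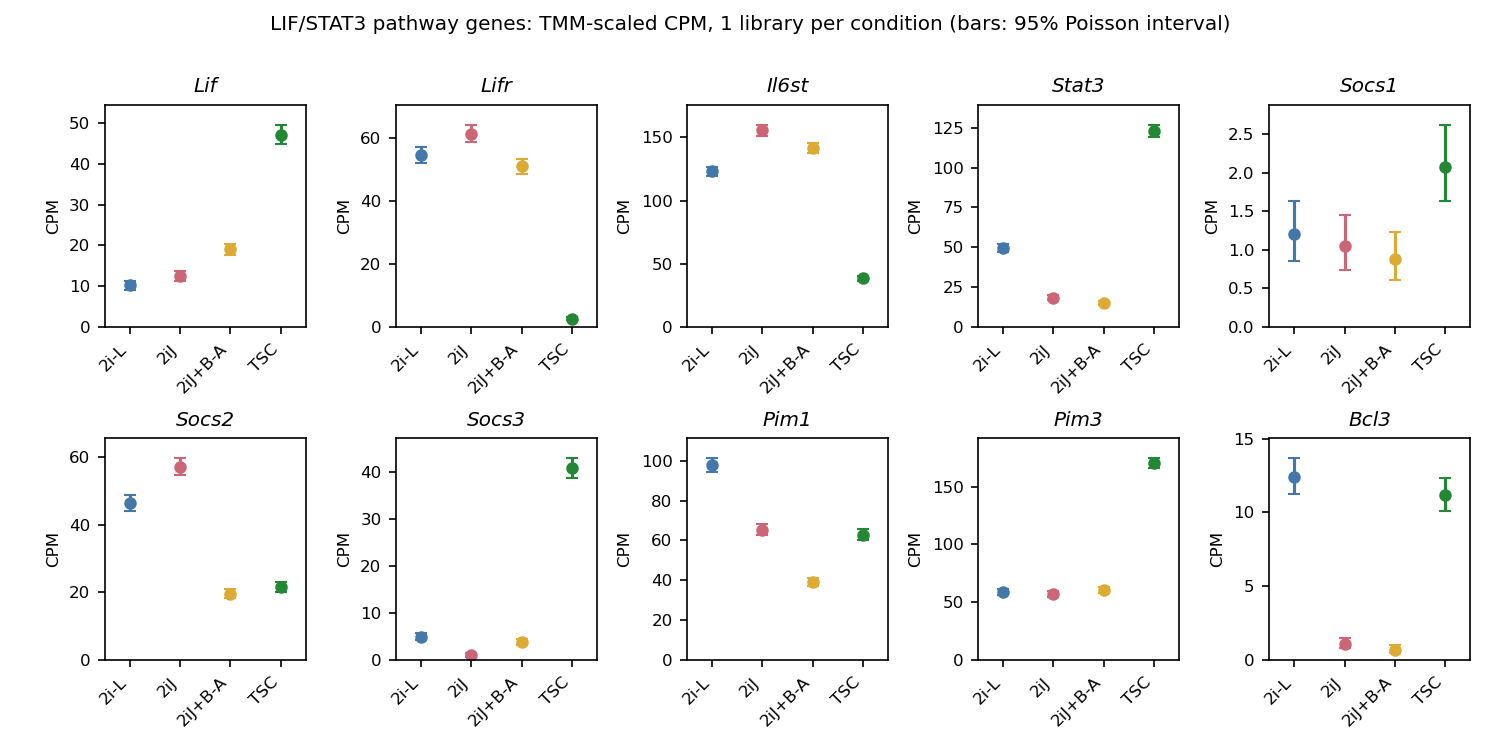
Level of each pathway gene in the 4 libraries (CPM on a linear axis from 0, 1 panel per gene), with bars for the 95% Poisson interval of the count. Stat3, Socs3 and Bcl3 are lower in 2iJ than in 2i-L, Socs3 is higher again in 2iJ+B-A while Stat3 and Bcl3 are not, and Lifr is at 2.62 CPM in TSC.

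The Pim genes encode serine/threonine kinases that favor survival and growth. Pim1 (ENSMUSG00000024014, chr17:29627757-29632390, plus strand) was at 97.9 CPM in 2i-L, 65.4 CPM in 2iJ, then 39.3 CPM for 2iJ+B-A, and 62.8 CPM in TSC. It was highest in 2i-L and lowest in 2iJ+B-A, with overlapping intervals for 2iJ and TSC. The 2iJ level was 0.668 of that in 2i-L (interval 0.632 to 0.705) and 1.66-fold (1.56 to 1.78) that of 2iJ+B-A, both short of 2-fold. Across both steps together, 2i-L stood at 2.49-fold (2.34 to 2.65) the 2iJ+B-A level. A long noncoding RNA gene, Gm16912, lies on the opposite strand at this locus. Approximate matches elsewhere spanned 39.7% of the Pim1 transcript, with a match score of up to 86.7%. Pim3 (ENSMUSG00000035828, chr15:88692616-88696150, plus strand) was at 59.0 CPM in 2i-L, 57.1 CPM under 2iJ, 60.5 CPM under 2iJ+B-A and 170 CPM in TSC. The intervals of the 3 R1 libraries overlapped between neighbours, and the ratio of 2iJ to 2i-L was 0.968 (0.908 to 1.03). This interval includes 1 and covers counting error only, so it sets no bound on the difference between the conditions. In TSC, Pim3 was at 2.89-fold (2.74 to 3.04) its 2i-L level. Per exon length, Pim1 exceeded Pim3 by 2.04-fold in 2i-L and by 1.41-fold in 2iJ, whereas Pim3 exceeded Pim1 by 1.25-fold in 2iJ+B-A and by 2.21-fold in TSC.

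Bcl3 (ENSMUSG00000053175, chr7:20393811-20408119, minus strand), an atypical IκB protein that acts as a cofactor of NF-κB subunits in the nucleus, was at 12.4 CPM (413 counts) in 2i-L, 1.11 CPM (38 counts) with the JAK inhibitor (2iJ), 0.692 CPM (26 counts) after BMP4 and the ALK5 inhibitor were added (2iJ+B-A) and 11.2 CPM (393 counts) in TSC. The libraries fell into a high pair, 2i-L and TSC, and a low pair, both with the JAK inhibitor, and within each pair the intervals overlapped. The 2i-L level was 11.2-fold (interval 8.04 to 16.1) that of 2iJ and 17.9-fold (12.1 to 27.8) that of 2iJ+B-A. Between 2iJ+B-A and 2iJ the ratio was 0.625 (0.365 to 1.06), and between TSC and 2i-L it was 0.901 (0.783 to 1.04), so neither was separated from 1 by counting error. Unlike Socs3, Bcl3 was not at a higher level in 2iJ+B-A than in 2iJ. Gm16175 and Gm16174 lie on the opposite strand of the Bcl3 locus, and between 0 and 4 read pairs per library lay on the other strand of Bcl3.

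Promoter sequences of the 3 genes that were lower in 2iJ are shown because STAT3 dimers are known to bind a palindrome in DNA, written here as TTCNNNGAA, which reads the same on both strands. The windows are RefSeq sequences of GRCm38.p6, from 250 bases before to 50 bases after the annotated start, on the strand of the gene and from 5′ to 3′, with the motif in capitals. They lie at chr11:117969317-117969616 for Socs3, chr11:100939491-100939790 for Stat3 and chr7:19822706-19823005 for Bcl3, all on the minus strand.
Socs3: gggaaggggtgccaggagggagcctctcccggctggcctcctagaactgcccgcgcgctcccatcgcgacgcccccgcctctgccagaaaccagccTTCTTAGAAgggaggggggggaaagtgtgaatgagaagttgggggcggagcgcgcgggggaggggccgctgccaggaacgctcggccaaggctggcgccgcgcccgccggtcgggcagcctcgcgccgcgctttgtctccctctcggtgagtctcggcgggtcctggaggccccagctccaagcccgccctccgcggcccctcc
Stat3: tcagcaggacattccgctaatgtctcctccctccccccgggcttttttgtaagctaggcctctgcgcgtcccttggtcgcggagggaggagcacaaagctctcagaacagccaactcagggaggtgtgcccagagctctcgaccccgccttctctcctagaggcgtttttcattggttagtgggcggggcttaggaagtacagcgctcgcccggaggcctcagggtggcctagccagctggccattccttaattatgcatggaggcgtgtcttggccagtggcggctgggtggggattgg
Bcl3: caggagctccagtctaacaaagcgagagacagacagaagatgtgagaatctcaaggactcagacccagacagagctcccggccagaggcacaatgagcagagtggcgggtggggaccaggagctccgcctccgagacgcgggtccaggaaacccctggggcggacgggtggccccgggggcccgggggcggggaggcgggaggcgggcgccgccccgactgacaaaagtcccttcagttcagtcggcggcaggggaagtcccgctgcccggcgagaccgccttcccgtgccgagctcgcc
The Socs3 window held the motif once, as TTCTTAGAA, between 154 and 146 bases before the start. A window was found for 9 of the 10 genes, not for Socs2, and Socs3 was the only one of the 9 with the motif. Lifr and Pim1 had more than 1 window, so the 9 genes had 11 windows, of which 1 held the motif. Of all 32851 windows of this length, 8.3% held it. The other known STAT3 targets were Klf4, Klf5, Tfcp2l1, Gbx2, Myc, Junb, Fos, Mcl1, Pim2, Bcl2l1, Cebpb and Cebpd. Of these 12, 9 had a window, and 0 of the 9 held the motif. A match is a run of letters and not a measured binding site, and its absence says only that these letters are not in the window.

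Addition of BMP4 and the ALK5 inhibitor to 2iJ went with a higher level of 1 of the 10 genes, Socs3, and a lower level of 1, Socs2, at 2-fold or more. Of all genes kept, 5.81% were higher and 3.17% lower in 2iJ+B-A by this measure, 8.97% in either direction. The median log2 ratio of the 10 genes was -0.21, beside 0.00 for all genes kept. Lif had a log2 ratio of 0.59 and Pim1 of -0.73, and the other 6 genes lay between -0.43 and 0.09. Stat3 and Bcl3 thus had log2 ratios of -0.25 and -0.43 in this comparison, without the difference in the other direction that Socs3 had. Summed TSC markers were higher in the same library, at 898 CPM against 304 CPM in 2iJ. Of the 8, 5 were higher by at least 2-fold, Krt8 making up 553 CPM of the sum, whereas Eomes was lower (2.74 against 10.7 CPM) and Tfap2c stood at 113.5 against 142 CPM. Also higher were primitive endoderm markers, at 420 CPM against 284 CPM. Summed ESC markers were lower, at 2962 CPM against 4762 CPM. The part of these cell states in the levels of Socs3 and Socs2 was not tested. Against 2i-L, 4 of the 10 genes were lower in 2iJ+B-A (Stat3, Socs2, Pim1 and Bcl3) and 0 higher, where 4.52% of all genes kept were lower and 7.93% higher, 12.5% in either direction.

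Between TSC and 2i-L, neither of which has a JAK inhibitor on its label, 7 of the 10 genes differed by at least 2-fold. Lif, Stat3, Socs3 and Pim3 were higher in TSC, and Lifr, Il6st and Socs2 were lower. Differences were common in this comparison, with 19.4% of all genes kept higher and 17.4% lower in TSC, 36.8% in either direction. Log2 ratios ran from -4.14 for Lifr to 2.93 for Socs3, with a median of 0.23 beside 0.00 for all genes kept. The 10 genes were split evenly around 0, and with a filter at 5 CPM, which leaves out Socs1, the median was -0.14. In TSC, higher transcript levels of Lif, Stat3 and Socs3 than in 2i-L thus stood beside lower levels of both receptor chains and of Socs2. This comparison shares the 2i-L library with that of 2iJ, so the values of the 2 comparisons are not independent.

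**Figure D3:**
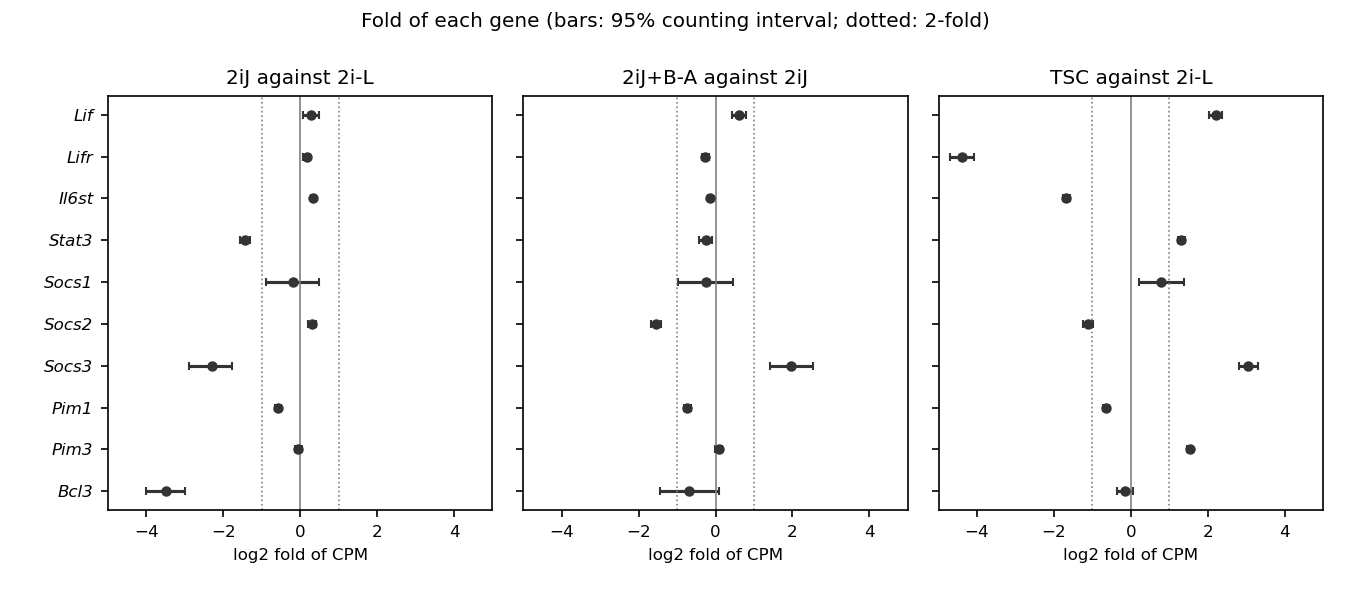
Log2 fold of CPM for each pathway gene in the 3 comparisons (no CPM added), with bars for the 95% counting interval and dotted lines at 2-fold. The leftmost panel has 3 genes beyond the line, all lower in 2iJ, the middle panel 1 on each side, and the TSC panel 4 higher and 3 lower.

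Levels can be compared between genes only per length of exon, and FPKM, which scales counts for exon length as well as depth, served for this. In 2i-L the order ran from Pim1 (49.6 FPKM) through Pim3 (24.4) and Il6st (23.7) to Socs3 (1.70) and Socs1 (0.986). Lifr, Stat3, Bcl3 and Socs2 lay between 4.86 and 5.29 FPKM, with overlapping intervals from each to the next. Among those 4 genes, which stood together in 2i-L, the 2iJ library held Socs2 at 5.99 and Lifr at 5.95 FPKM, Stat3 at 1.92 FPKM and Bcl3 at 0.445 FPKM. Socs3 was the lowest of the 10 in 2iJ, at 0.343 FPKM, with an interval that overlapped that of Bcl3. In TSC the order was led by Pim3 (70.3 FPKM) and Pim1 (31.9 FPKM), followed by Socs3 at 14.1 FPKM and Stat3 at 12.9 FPKM. Exon length here is the union of all annotated exons of a gene, so a gene with long, rarely used exons has a lower value.

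**Figure D4:**
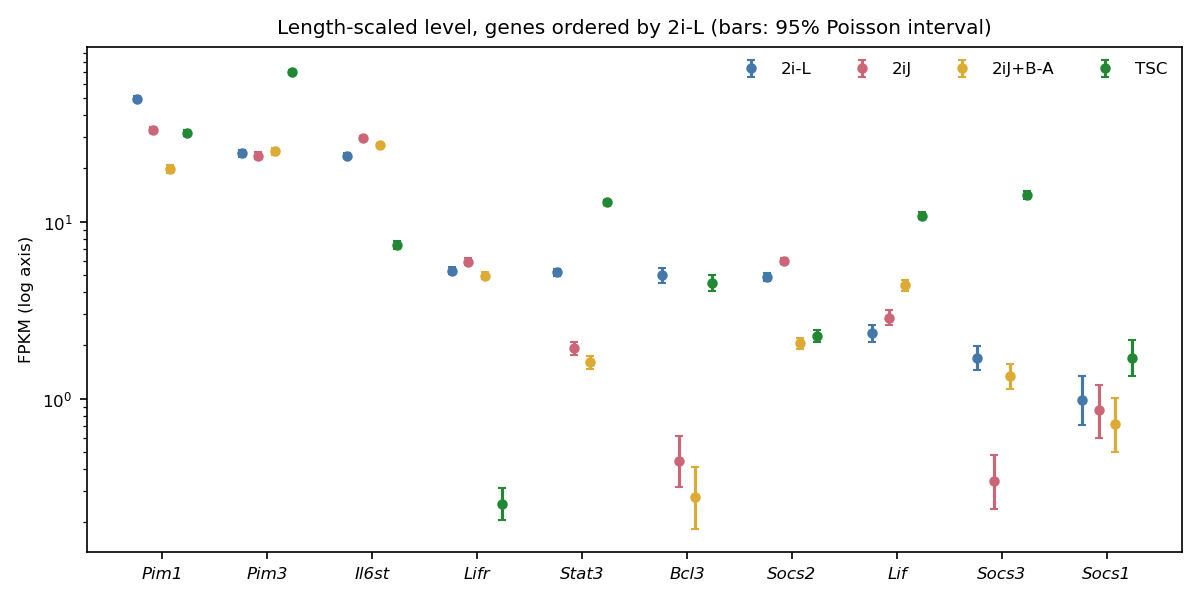
FPKM on a log axis for the 10 genes, ordered by their level in 2i-L, with the 4 libraries side by side and bars for the 95% Poisson interval. Lifr, Stat3, Bcl3 and Socs2 stand together near 5 FPKM in 2i-L, whereas in 2iJ Stat3 and Bcl3 lie below Lifr and Socs2.

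Beyond the 10 genes, 49 other genes of the pathway were listed in 7 groups, and 41 of them passed the filter. In 2iJ, 1 of the 41 was lower than in 2i-L by at least 2-fold and 0 were higher, beside 0.918% and 1.23% of all genes kept. The lower gene was Klf4, a pluripotency transcription factor that responds to STAT3, at 66.2 CPM in 2i-L, 32.2 CPM for 2iJ, 73.1 CPM for 2iJ+B-A, and 5.75 CPM for TSC. It belongs to the group of other STAT3 targets. Of the 11 in this group that passed the filter, 7 had a log2 ratio below 0 in 2iJ and 4 above 0, with a median of -0.54. Tfcp2l1 (-0.936), Gbx2 (-0.861) and Klf5 (-0.825), named after their values were seen, fell short of the threshold, and the highest was Myc (0.67). Without the added 0.5 CPM, Gbx2 was 2.11-fold (1.48 to 3.04) higher in 2i-L, at 2.95 against 1.40 CPM. In that group Mcl1, an antiapoptotic gene with the highest level per length in 2i-L, went from 479 CPM in 2i-L to 449 CPM in 2iJ. The 4 JAK kinase genes all had log2 ratios below 0 in 2iJ, between -0.72 and -0.04. However, the fold intervals of Jak2 (0.832 to 1.06) and Tyk2 (0.887 to 1.07) included 1. Jak1 was at 0.898-fold (0.842 to 0.957) its 2i-L level. The lowest was Jak3, best known from lymphocyte cytokine receptors, at 47.4 CPM in 2i-L, 28.6 CPM in 2iJ, then 21.0 CPM for 2iJ+B-A, and 60.9 CPM in TSC.

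In the remaining groups, no gene that passed the filter differed by 2-fold between 2iJ and 2i-L. For the 6 other STAT genes, log2 ratios ran from -0.77 to 0.44. Stat2, which acts in interferon signaling, was at 37.1 CPM in 2i-L and 28.5 CPM in 2iJ. The 5 other SOCS genes had log2 ratios between -0.36 and 0.04, and Socs7, the highest of them per length, was at 56.4 CPM and 50.7 CPM. The 8 genes of other inhibitors and phosphatases ranged from -0.34 to 0.13, and Pias2, a SUMO ligase of the PIAS family, was at 237 CPM and 259 CPM. Among the other receptors of the family, Il6ra, the IL6-binding chain, was at 4.33 CPM and 3.58 CPM, and the 5 that passed the filter ranged from -0.24 to 0.39. Of 8 other ligand genes, 2 passed the filter, and Ctf1, which encodes cardiotrophin, a ligand that also signals through LIFR and gp130, was at 2.95 CPM in 2i-L and 4.66 CPM in 2iJ.

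In 2iJ+B-A, 5 of the 41 genes were higher than in 2iJ by at least 2-fold, beside 5.81% of all genes kept, and 0 were lower. All 5 belonged to the group of other STAT3 targets. Klf4 was at 2.27-fold (interval 2.11 to 2.43) its 2iJ level, and the others, named here after their values were seen, were Myc, Junb, Fos and Cebpb, with ratios of 2.98, 2.47, 2.98 and 5.21. Fos and Junb belong to the immediate early genes that many growth factor and stress signals raise. Which signal their levels here went with was not tested. This comparison shares the 2iJ library with that against 2i-L. Between TSC and 2i-L, 13 of the 41 genes were higher and 6 lower, beside 19.4% and 17.4% of all genes kept. Receptor genes of the family other than Lifr and Il6st were among the higher ones, 3 of the 5 that passed the filter. Klf4 was lower in TSC, with 11.5-fold more in 2i-L, and so was Pias2, with 2.57-fold more in 2i-L. Osm and Stat4, named after their values were seen, had no counts in TSC and were at least 28.5-fold and 235-fold lower there than in 2i-L, taking 3 counts in TSC as the bound.

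**Figure D5:**
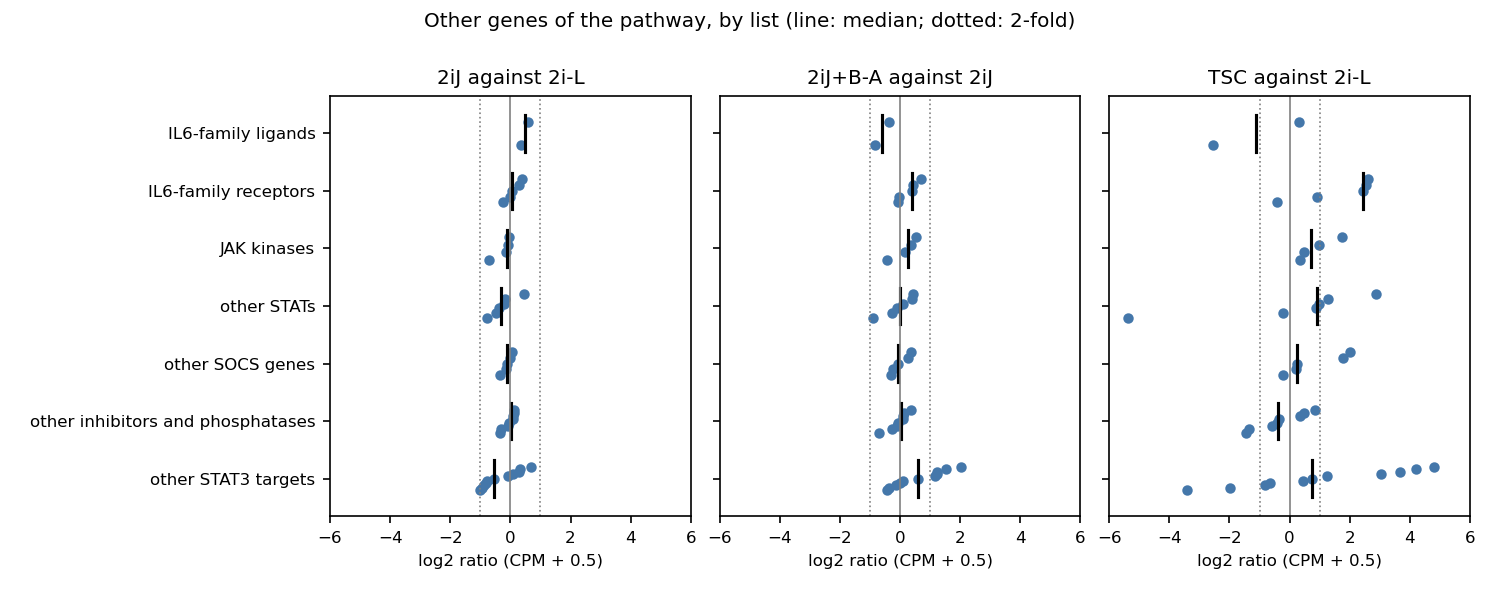
Log2 ratio (CPM with 0.5 added) of each of the 41 other pathway genes kept, by group, in the 3 comparisons, with a black line at the median of each group and dotted lines at 2-fold. In 2iJ against 2i-L the points lie within 2-fold except Klf4 just beyond it, and the spread is widest in TSC against 2i-L.

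Genes with a profile like that of Socs3 were sought among the 10263 genes that reached 10 CPM in some library, by the Euclidean distance between log2 levels centred on each gene's mean. Over the 4 libraries, the nearest was Maff, a small MAF transcription factor (distance 0.76), at 4.60 CPM in 2i-L, 1.34 CPM under 2iJ, 2.48 CPM under 2iJ+B-A and 25.9 CPM in TSC. It was followed by Aldh3b2 (0.77), Junb (0.80), Apobr (0.88) and Bst2 (0.88). Junb, an AP-1 subunit, was at 8.27, 4.66, 11.5 and 111 CPM in the same order of libraries. Maff, Aldh3b2 and Apobr reached 10 CPM only in TSC, where Socs3 was highest too. Their entry into this search thus depended on that library. Aldh3b2 was at 0.0874 CPM in 2iJ, the level of 3 counts, so its value there rests largely on the 0.5 CPM added. Over the 3 R1 libraries alone, the nearest was Vegfa, the angiogenic growth factor (distance 0.14), at 32.2 CPM in 2i-L, 8.59 CPM under 2iJ and 29.4 CPM under 2iJ+B-A. Scd1, a fatty acid desaturase (0.32), Cmklr1 (0.48), Atp2a3 (0.56) and Alpk3 (0.56) came next. Cmklr1 (3.28, 1.17 and 3.30 CPM in 2i-L, 2iJ and 2iJ+B-A) and Atp2a3 (7.04, 3.03 and 6.52 CPM) reached 10 CPM only in TSC. They thus entered this search through the library left out of it. No gene was in both sets of 5, and with 4 or 3 libraries these distances are a description only.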

How the data were processed

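RNA-seq libraries (directional, poly-A selected) of 4 samples were used, 1 per condition. According to the methods and the submitters' processing notes, the authors processed reads with CASAVA 1.8.2, trimmed them at a quality cutoff of 20 with cutadapt and mapped them to NCBIM37 with STAR 2.4.2a. The deposited values are whole-number counts of read pairs per gene, not normalized, and carry no ComBat adjustment, which gives values that are not whole. Which annotation release was used, and which of the count columns, are not given in the sources used here. Column 4, the reverse strand, was used, since it held 29.1 to 32.11 times the counts of the same strand. Summary lines were left out of library sizes (unmapped 1.47% to 1.87%, multimapping 6.72% to 7.01%, no feature 7.04% to 8.4%, ambiguous 0.89% to 0.94%), and genes held 82.23% to 83.58% of read pairs. Of 37620 identifiers, 37205 were found in the NCBIM37 annotation, and Tfcp2l1 and Tfap2c were found under older symbols through RefSeq synonyms.

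TMM factors came from edgeR 4.0.16 (alternative: DESeq2 1.42.0) in R 4.3.3, and the rest ran in Python 3.11.15 (pandas 2.3.3, numpy 2.4.6, scipy 1.17.1, matplotlib 3.10.9). No count model or p-value was computed, because each group had 1 sample. Log2 ratios used a pseudocount of 0.5 CPM, which understates differences of low genes, and folds used none. Intervals are 95% Poisson intervals for levels and 95% Clopper-Pearson intervals for folds, and cover counting error only. Transcripts were mapped to NCBIM37 with minimap2 2.31-r1302 without base-level alignment. Their match percentages and scores are therefore approximate and are not sequence identities. Scripts were tested on simulated data. The members and lists were chosen with earlier results of these data known. Named were all 10 members, pathway genes that differed by at least 2-fold in 2iJ or were highest of their list per length in 2i-L, and the 5 nearest profiles to Socs3 over 4 and over 3 libraries. The 8 alternatives were the unstranded count, 2 other scalings, 2 pseudocounts, 2 filters and a 1.5-fold threshold.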

Additional observations from a re-analysis of the deposited data

How the results depend on the processing

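No paired analysis was possible because each group had 1 sample. Under 8 alternatives, 207 log2 ratios of the 10 genes were recomputed. None of the called ratios changed sign, 202 stayed within their counting interval, and the 5 outside it were all of TSC to 2i-L. Of 48 recomputed counts of the 10 genes or the pathway genes, 11 changed, 4 of them by over 1.5 times, and of 21 medians 1 changed sign, that of TSC to 2i-L at a filter of 5 CPM (-0.14 instead of 0.23). With 0.1 CPM as the pseudocount, 2 pathway genes differed between 2iJ and 2i-L instead of 1. At 1.5-fold, the pathway genes that differed were 8 for 2iJ against 2i-L and 9 instead of 5 for 2iJ+B-A against 2iJ, and 4 of the 10 genes instead of 2 differed in the latter, Lif and Pim1 being added. For TSC against 2i-L it gave 9 of the 10 genes instead of 7 and 27 pathway genes instead of 19. With library totals, 6 of the 10 genes instead of 7 differed between TSC and 2i-L, and the median of all genes shifted by at most 0.10 under any scaling. The number of all genes that differed between 2iJ and 2i-L, 306, was 652 with 0.1 CPM, 181 with 1 CPM, 192 with a filter at 5 CPM and 1325 at 1.5-fold. At 1.5-fold it went from 1280 to 2944 for 2iJ+B-A against 2iJ and from 5246 to 8035 for TSC against 2i-L. The depth limited Socs1, with at most 73 counts, and Socs3 and Bcl3 in 2iJ, with 34 and 38.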
